A study of Mus musculus with 2 samples.

Results

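Collagens are the structural proteins of the extracellular matrix, and each is a trimer of chains wound around each other. Glycine is the first residue of the repeating Gly-X-Y unit of every collagen chain, which makes these proteins among the richest in glycine that a cell translates. In the spinal cord they lie mainly in the meninges, in the walls and basement membranes of blood vessels and in the nerve roots, and fibroblasts, mural cells, endothelial cells and Schwann cells are their usual sources. The 10 collagen genes described here were chosen by identifier, and the tables held 12530 mouse genes. They are Col1a1 (ENSMUSG00000001506), Col1a2 (ENSMUSG00000029661), Col3a1 (ENSMUSG00000026043), Col4a1 (ENSMUSG00000031502), Col4a2 (ENSMUSG00000031503), Col5a1 (ENSMUSG00000026837), Col5a2 (ENSMUSG00000026042), Col6a1 (ENSMUSG00000001119), Col6a2 (ENSMUSG00000020241) and Col18a1 (ENSMUSG00000001435). Of these, 8 had a row in both tables. Col5a1 and Col5a2, which encode chains of the minor fibril collagen V, had no row in either and were not analysed here.

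The samples were spinal cords of wild-type mice and of mice heterozygous for Gars C201R, a missense allele of the gene for glycyl-tRNA synthetase, which attaches glycine to its tRNAs. Each genotype had 1 ribosome profiling library, prepared from lysates of 3 animals that were combined first. The sources used here do not give strain, sex or age. The series asked about ribosomes on glycine codons. The tables give 1 number of reads per gene, so the values below are levels of whole genes and say nothing of codons.

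The wild-type library held 7770935 gene reads, 2.23 times the 3491159 of the heterozygous library. RPKM below is the authors' value, the reads scaled to the length of the gene and the depth of the library, and is the scale on which genes are set side by side. The fold and the log2 ratio are the heterozygous over the wild-type level after TMM scaling, which equalises the bulk of genes between libraries. Calls of higher or lower required a sum of at least 100 reads over the libraries, a 95% counting interval that left out equal levels and a difference of at least 1.5-fold in either direction. Each genotype has 1 library, so nothing here was checked in replicates. All intervals cover counting error only, and variation between pools or animals cannot be told apart from the genotype. In whole tissue, more or fewer cells of a type, more or less RNA per cell and more or fewer ribosomes per RNA cannot be told apart. The tables pair no other identifier with a symbol, so neither Gars nor the marker genes of the tissue and its cell types were checked.

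Most of the collagen reads came from chains that share a trimer, and the genes of the collagen IV pair start close to each other on opposite strands of chromosome 8. Their start region is shown because the results below turn on how far such partners differed. It is chr8:11312801-11312830 on the plus strand of GRCm38.p6, from RefSeq, and the capitals run from the start of Col4a2 at 11312805 to 11312826, the start of Col4a1 behind its RefSeq promoter window, 21 bases away.

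Col4a1 and Col4a2 starts: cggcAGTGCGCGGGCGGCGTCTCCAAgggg

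The RefSeq span of Col4a1 reaches further, to 11312889, so that the spans of both genes overlap by 85 bases here, and reads from this overlap could not be assigned to a strand from the tables. Col1a2 gave the most collagen reads. Its 250 bases before the start, chr6:4505368-4505617 on the plus strand of GRCm38.p6, are shown with matches to a CCAAT box or to the GC box GGGCGG in capitals.

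Col1a2: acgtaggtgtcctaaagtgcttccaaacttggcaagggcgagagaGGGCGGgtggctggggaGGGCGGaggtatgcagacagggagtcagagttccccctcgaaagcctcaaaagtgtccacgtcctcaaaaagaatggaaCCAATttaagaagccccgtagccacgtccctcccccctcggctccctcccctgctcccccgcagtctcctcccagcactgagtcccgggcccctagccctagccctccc

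RefSeq windows of 250 bases before the start were at hand for 8 of the 10 symbols, without Col1a1 and Col5a2. Col6a2 and Col18a1 had more than a single window. Genes are named below where any of their windows held a match, while the percentages count single windows, so these are unlike measures. Both strands were searched for the motif CCAAT, the motif GGGCGG of the GC box, and the motif TATAAA, and no match of one motif overlapped a match of another. CCAAT was found before Col1a2, Col4a1, Col4a2 and Col18a1, and in 33.8% of all 32851 windows. GGGCGG was found before Col1a2, Col4a2, Col5a1, Col6a2 and Col18a1, and in 32.7% of all windows. TATAAA was found before Col3a1 alone among them, and in 12.4% of all windows. These are matches of letters and not binding sites.

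In the heterozygous library Col1a1 and Col4a1 were higher by 2.96-fold and 2.03-fold, while their trimer partners Col1a2 and Col4a2 were near equal levels, at 1.17-fold and 0.919-fold. Of the 8 listed collagens, 5 passed the minimum of 100 reads. Of these 5, 2 were counted as higher, Col1a1 and Col4a1, against 8.14% of all 9726 genes past the minimum. None of the 5 was counted as lower, against 11.2% of those genes. Col6a2 had a similar fold of 2.22 but fell just under the minimum with 96 reads, and Col18a1 was just above it with 106. At a minimum of 20 reads, 3 of 8 collagens were counted as higher, with Col6a2 added, and none as lower. The shares over 12160 genes were then 10.9% and 11.1%. Col3a1 and Col6a1, with 24 and 17 wild-type reads, could not have been counted as lower at that minimum. Equal levels would have given them 11.2 and 7.93 heterozygous reads. The lowest RPKM listed in the heterozygous library, 0.501, corresponds to 10 and 8 reads for their lengths. In the wild-type library the lowest RPKM listed was 0.183.

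**Figure D1:**
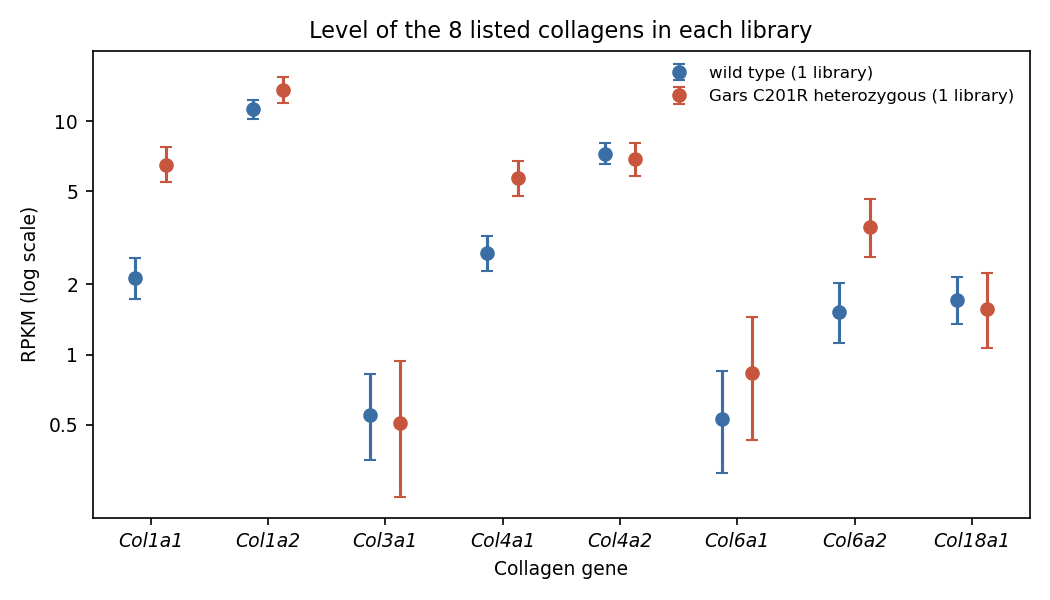
RPKM (log scale) of the 8 listed collagens in the wild-type (blue) and heterozygous (red) library, 1 library each, with 95% Poisson intervals of the reads. The intervals of Col1a1, Col4a1 and Col6a2 do not overlap between the libraries, and those of the other 5 do.

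Col1a1 and Col1a2 encode the chains of collagen I, the main protein of thick fibrils in meninges and nerve sheaths. Col1a1 lies on chromosome 11 at 94936224 to 94953042 (GRCm38.p6) and its counted length was 5930 nt. The wild-type library had 98 Col1a1 reads (Poisson interval at 95% 79.6 to 119) and the heterozygous library 136 (114 to 161). Equal levels would have given 45.7 reads in the latter. Its level went from 2.12 RPKM in the wild-type to 6.51 RPKM in the heterozygous library, from above 17.3% to above 42.1% of all listed genes. The log2 ratio was 1.57 (95% counting interval 1.19 to 1.96). This ratio was above that of 99.7% of the genes past the minimum. The log2 ratios of the 1538 genes within 25% of its reads had a robust SD of 0.52, so library-to-library differences of other genes reached well past counting error.

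Col1a2, on chromosome 6 at 4505618 to 4541543, with a length of 5348 nt, was the most abundant collagen in both libraries. Its reads were 468 (427 to 512) in wild type and 256 (226 to 289) in the heterozygous library, where equal levels would have given 218. Its levels were 11.2 and 13.6 RPKM, and the log2 ratio was 0.23 (0.0048 to 0.45). That interval barely left out equal levels. Intervals that left out equal levels, at any fold, were found for 51.9% of genes past the minimum. The interval of Col1a2 took in equal levels once the wild-type reads were thinned to the heterozygous depth, at a log2 ratio of 0.21 (-0.061 to 0.48).

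Col3a1 encodes the only chain of collagen III, the fine-fibril collagen of vessel walls and meninges. It lies on chromosome 1 at 45311538 to 45349706, with a length of 5564 nt. Its reads were 24 (15.4 to 35.7) in wild type and 10 (4.80 to 18.4) in the heterozygous library, at 0.554 and 0.511 RPKM. No gene was listed below 0.501 RPKM in the heterozygous library, and for the length of Col3a1 that level corresponds to 10 reads, the number it had. Its log2 ratio was -0.16 (-1.39 to 0.96), a wide interval that left out only differences past its bounds. Fewer heterozygous reads could not have been listed, and the interval takes no account of that. Collagen III and collagen I often share fibrils, yet Col3a1 was scarce beside Col1a2 in both libraries.

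Col4a1 and Col4a2 encode the widespread chains of collagen IV, the sheet-forming collagen of basement membranes. Col4a1 spans 11198423 to 11312889 and Col4a2 spans 11312805 to 11449287 on chromosome 8, with counted lengths of 6615 and 6450 nt. Col4a1 reads were 140 (118 to 165) in wild type and 133 (111 to 158) in the heterozygous library, where equal levels would have given 65.3. Its levels were 2.72 and 5.71 RPKM. The log2 ratio was 1.02 (0.67 to 1.38), above that of 98.4% of the genes past the minimum, beside a robust SD of 0.49 among the 1566 genes within 25% of its reads. Both numbers of reads were nearly the same although the heterozygous library was the shallower one.

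Col4a2 reads were 364 (328 to 403) in wild type and 156 (132 to 182) in the heterozygous library, where equal levels would have given 169.7. Its levels were 7.24 and 6.87 RPKM, and the log2 ratio was -0.12 (-0.40 to 0.15). Col4a2 therefore did not differ detectably, and its interval left out a rise of the size seen in Col4a1. Col18a1 encodes the chain of collagen XVIII, a basement membrane collagen that carries heparan sulfate and yields endostatin. It lies on chromosome 10 at 77052178 to 77166530, with a length of 5595 nt. Its reads were 75 (59.0 to 94.0) and 31 (21.1 to 44.0), at 1.72 and 1.57 RPKM in the wild-type and heterozygous library. Its log2 ratio of -0.17 (-0.83 to 0.45) held equal levels well inside the interval.

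Col6a1 and Col6a2 encode chains of collagen VI, which forms beaded microfibrils around cells and peripheral nerve fibres. Both lie on chromosome 10, Col6a1 at 76708792 to 76726044 and Col6a2 at 76595756 to 76623630, with lengths of 4100 and 3949 nt. Col6a2 reads were 47 (34.5 to 62.5) in wild type and 49 (36.3 to 64.8) in the heterozygous library, where equal levels would have given 21.9. Its levels were 1.53 and 3.52 RPKM and its log2 ratio was 1.15 (0.55 to 1.77). The 1103 genes within 25% of its reads had a robust SD of 0.74, wider than for Col1a1 or Col4a1. The ratio of Col6a2 was above that of 93.4% of those genes. For Col1a1 and Col4a1 it was 99.6% and 97.7%, each among genes within 25% of its own reads. Col6a1 had 17 reads (9.90 to 27.2) and 12 reads (6.20 to 21.0), at 0.532 and 0.831 RPKM. Its log2 ratio of 0.58 (-0.60 to 1.75) had an interval that took in both equal levels and the ratio of Col6a2. The 451 genes within 25% of its reads had a median log2 ratio of 0.46, so its ratio was ordinary for its reads. For its length, the lowest RPKM listed in the heterozygous library corresponds to 8 reads.

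**Figure D2:**
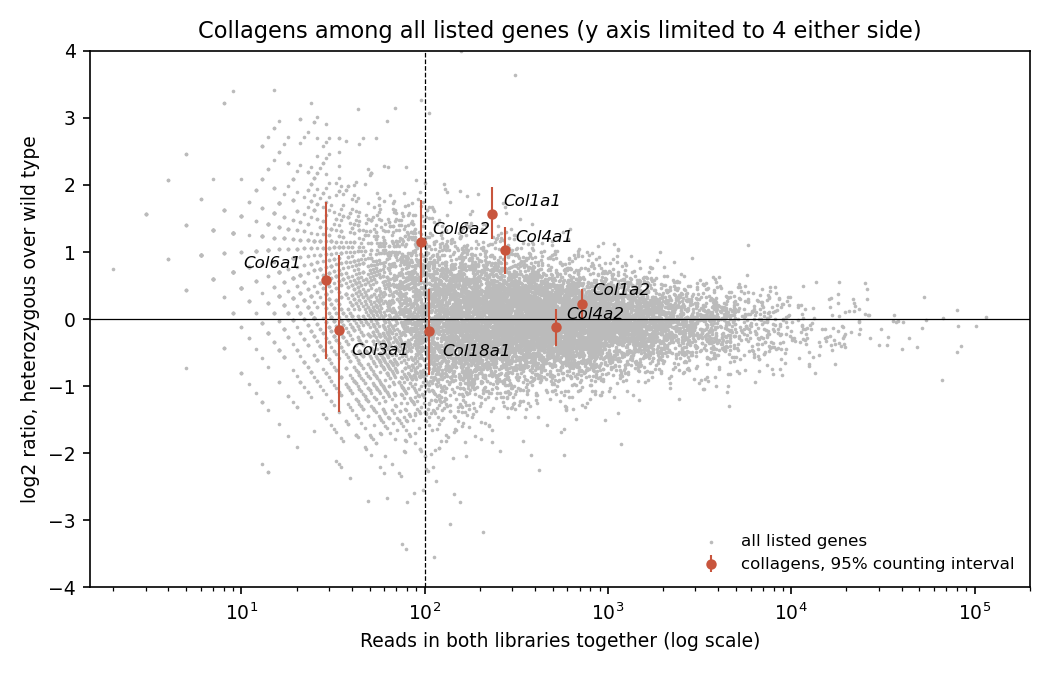
Log2 ratio, heterozygous over wild type (y axis, shown between -4 and 4) against the summed reads of both libraries (x axis, log scale) for all listed genes (grey) and the 8 collagens (red, 95% counting intervals), with a dashed line at 100 reads. Col1a1 at 1.57 and Col4a1 at 1.02 lie at the upper edge of genes with similar reads, while Col1a2, Col4a2, Col18a1 and Col3a1 lie inside the grey cloud near 0.

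Over the 8 listed collagens the log2 ratio ran from -0.17 to 1.57, and 5 were above 0 and 3 below. Their median was 0.40, beside 0.0018 for all 12530 listed genes. Listed genes with as few reads as Col6a1 and Col3a1 had medians above 0. These were 0.46 over the 451 genes within 25% of the reads of Col6a1 and 0.37 over the 509 for Col3a1. Over the 5 collagens past the minimum the median was 0.23, beside -0.034 for all 9726 such genes. It moved with the few genes that entered, to 0.62 over the 4 left with thinned wild-type reads and to 0.054 over the 2 with 500 reads or more. Together the 8 genes had 1233 reads (1165 to 1304), or 0.0159% of gene reads, in the wild-type library. They had 783 reads (729 to 840), or 0.0224%, in the heterozygous library. The summed reads were 1.36-fold higher (1.24 to 1.49) in the latter. Without Col1a1 the fold was 1.22 (1.11 to 1.35), and without Col4a1 it was 1.28 (1.16 to 1.41). The sum without both genes was not computed, so whether the rise extends past them was not tested.

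The summed changes of the fibril-forming and basement membrane classes leaned on Col1a1 and Col4a1. Both had the highest ratio of their class and were chosen after seeing the data, so the fold was bound to fall without them. The 3 listed chains of fibril-forming collagens (Col1a1, Col1a2 and Col3a1) went from 590 to 402 reads, a fold of 1.46 (1.28 to 1.66), and without Col1a1 the fold was 1.16 (0.995 to 1.35). The 3 basement membrane chains (Col4a1, Col4a2 and Col18a1) went from 579 to 320 reads, a fold of 1.19 (1.03 to 1.36). Without Col4a1 the direction turned, with 439 and 187 reads and a fold of 0.914 (0.766 to 1.09). The 2 collagen VI chains went from 64 to 61 reads, a fold of 2.03 (1.42 to 2.95), on the fewest reads of all classes. The interval of the fibril-forming class overlaps those of the other classes, and those of the basement membrane class and collagen VI do not overlap. A difference between classes was not tested.

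The proportion of chains within 1 library needs no scaling between libraries. In the wild-type library Col1a1 gave 98 of the 566 collagen I reads, or 17.3% (95% Wilson interval 14.4% to 20.6%). In the heterozygous library it gave 136 of 392, or 34.7% (30.2% to 39.5%). Per length, the ratio of Col1a1 to Col1a2 was 0.189 (0.150 to 0.235) in the wild-type and 0.479 (0.386 to 0.592) in the heterozygous library, 2.54 times as high (exact conditional interval 1.86 to 3.47). The collagen I genes thus stood closer to each other in the heterozygous library.

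The same held for collagen IV. Col4a1 gave 27.8% (24.0% to 31.8%) of 504 collagen IV reads in the wild-type and 46.0% (40.4% to 51.8%) of 289 in the heterozygous library. Per length, the ratio of Col4a1 to Col4a2 was 0.375 (0.306 to 0.457) and 0.831 (0.655 to 1.05), 2.22 times as high (1.62 to 3.03) in the heterozygous library. Collagen VI did not show such a difference at its depth. Its ratio of Col6a1 to Col6a2 was 0.348 (0.188 to 0.618) in the wild-type and 0.236 (0.114 to 0.450) in the heterozygous library, 0.677 times as high (0.265 to 1.70). Col3a1 to Col1a1 went from 0.261 (0.160 to 0.411) to 0.0784 (0.0367 to 0.149), 0.300 times as high (0.123 to 0.690). This pair shares Col1a1 with the collagen I pair, so it is not a separate change. Col3a1 itself did not differ detectably, and its 10 heterozygous reads were the fewest listable for its length.

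**Figure D3:**
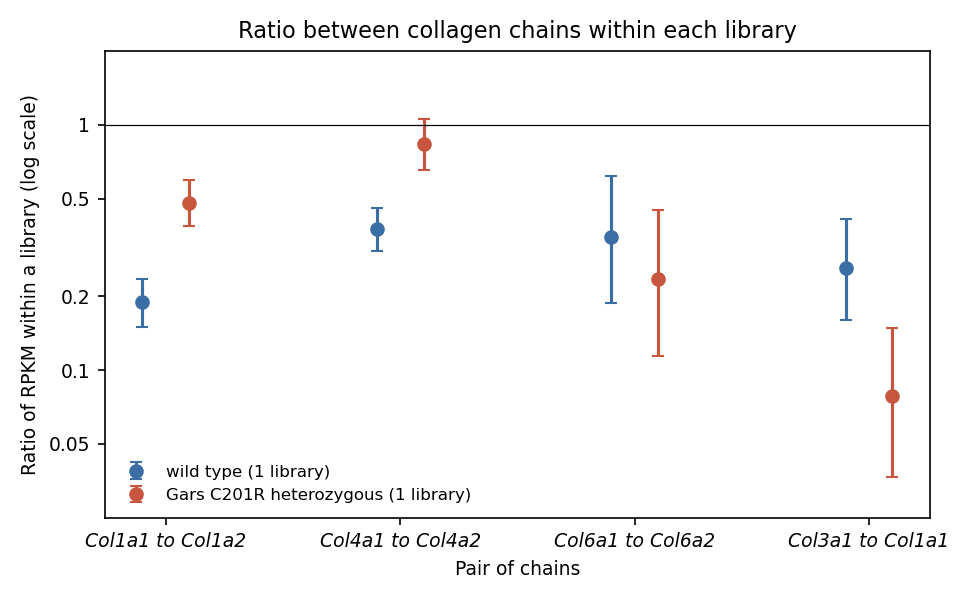
Ratio of RPKM between pairs of collagen chains within the wild-type (blue) and the heterozygous (red) library, on a log scale, with 95% binomial intervals of the read split and a line at equal RPKM. The ratios of Col1a1 to Col1a2 (0.189 and 0.479) and of Col4a1 to Col4a2 (0.375 and 0.831) are higher in the heterozygous library with intervals apart. That of Col3a1 to Col1a1 is lower with intervals apart, and that of Col6a1 to Col6a2 overlaps. The pair with Col3a1 shares Col1a1 with the collagen I pair, and Col3a1 had 10 heterozygous reads.

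The order of RPKM values differed between the libraries, though no pair of collagens that changed places was told apart in both. In the wild-type library it ran by RPKM from Col1a2 and Col4a2 to Col4a1, Col1a1, Col18a1, Col6a2, Col3a1 and Col6a1. Neighbours could not be told apart by their counting intervals from Col4a1 down to Col6a2, nor at the end between Col3a1 and Col6a1. In the heterozygous library the order was Col1a2, Col4a2, Col1a1, Col4a1, Col6a2, Col18a1, Col6a1 and Col3a1. There Col4a2, Col1a1 and Col4a1 could not be told apart as neighbours, nor Col18a1, Col6a1 and Col3a1. The RPKM of Col4a2 was 2.67 times (2.19 to 3.26) that of the next collagen, Col4a1, in the wild-type library. In the heterozygous library the next was another gene, Col1a1, and the RPKM of Col4a2 was 1.05 times (0.833 to 1.34) as high.

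As a share of all collagen reads, Col1a1 made up 7.95% (95% Wilson interval 6.57% to 9.59%) in the wild-type and 17.4% (14.9% to 20.2%) in the heterozygous library. Col4a1 made up 11.4% (9.70% to 13.2%) and 17.0% (14.5% to 19.8%). Col4a2 fell as a share, from 29.5% (27.0% to 32.1%) to 19.9% (17.3% to 22.9%). Col1a2 was at 38.0% (35.3% to 40.7%) and 32.7% (29.5% to 36.1%), with overlapping intervals. A share falls where another rises, so the lower share of Col4a2 goes with a level that did not differ detectably.

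**Figure D4:**
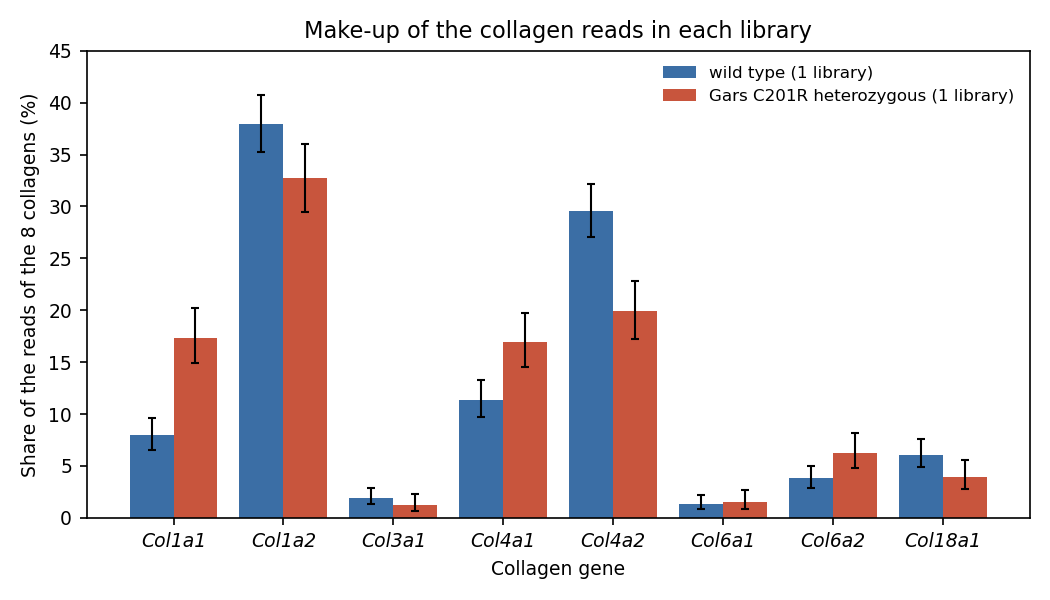
Share of the reads of the 8 listed collagens that each gene took in the wild-type (blue) and heterozygous (red) library, in percent from 0, with 95% Wilson intervals. Col1a1 (7.95% and 17.4%) and Col4a1 (11.4% and 17.0%) take larger shares in the heterozygous library and Col4a2 (29.5% and 19.9%) a smaller one.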

How the data were processed

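Per the labels' protocols, RNase I footprints of ribosomes were size-selected and made into cDNA, with animals pooled by genotype. Per the submitters' processing notes, Bowtie 1.2.2, HTSeq 0.9.1 and the build GRCm38 were used, with no roles stated. The sources used here do not give settings, annotation release, strand, ribosomal RNA removal or which part of a gene was counted. Per the file headers, the authors deposited read counts and RPKM per gene. The RPKM values imply whole-number gene lengths that are the same in both tables, for totals of 7790126 and 3520348 reads.

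All 12530 genes were scaled together by TMM (edgeR 4.0.16, R 4.3.3). The 18 ERCC spike-ins (520 and 22857 reads) were left out, so directions are relative to gene reads. A prior count of 0.5, in proportion to library size, was added for ratios, which have exact conditional binomial (Clopper-Pearson) intervals at 95%. Robust SD is the scaled median absolute deviation. Reads carry no molecular identifiers, so intervals cover counting error only. No p-value was computed. Other steps used Python 3.11.15 with scipy 1.17.1, numpy 2.4.6, matplotlib 3.10.9 and pandas 2.3.3.

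The collagens, the lists and the rule were chosen with earlier results of these data known. All 10 collagens were to be named. Symbols come from the list that chose them, because 0 of the identifiers matched the 49997 RefSeq genes used here. The 15 lists of matrix pathways and cell markers were therefore not analysed here. The glycine content of the proteins was not computed, because no protein sequences were at hand. Alternatives were other scalings (DESeq2 1.42.0 among them), read minimums, a 99% interval, a 2-fold limit, thinning and a prior count of 2.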

Additional observations from a re-analysis of the deposited data

How the results depend on the processing

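Under total-count, DESeq2 and upper-quartile scaling, the depth behind the RPKM values, omission of the 1 gene above 1% of a library, thinning of the wild-type library and a prior count of 2, each collagen kept the sign of its log2 ratio. Col1a1 lay between 1.55 and 1.70 and Col4a1 between 1.01 and 1.08. Genes with few reads moved more, with Col3a1 between -0.41 and -0.11 and Col6a1 between 0.35 and 0.63, where thinning gave -0.41 and 0.35. The scalings move all genes by 1 common factor, so this is no check of single genes. The count of collagens higher was 2 under those settings, with a 99% interval and with a 2-fold limit. It was 3 at 20 reads or none and 0 of 2 at 500 reads, which Col1a1 and Col4a1 do not reach. The log2 ratio of the summed reads was 0.45, against 0.29 without Col1a1 and 0.35 without Col4a1, both chosen after seeing the data, and 0.56 without Col1a2. By the same added choice the fibril-forming sum went from 0.55 to 0.21 without Col1a1, and the basement membrane sum turned from 0.24 to -0.13 without Col4a1. The median of 0.23 was 0.40 at 20 reads or none, 0.62 with thinning and 0.054 at 500 reads. Thinning moved the change in the ratio of Col1a1 to Col1a2 from 1.34 to 1.51 (log2) and that of Col4a1 to Col4a2 stayed at 1.15. No paired analysis was possible because each genotype has 1 library. Depth limits Col3a1, Col6a1, Col6a2 and Col18a1 most, with 10 to 49 heterozygous reads.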

Other observations

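Most collagen I trimers are known to hold more chains from Col1a1 than from Col1a2, and the common collagen IV trimer more from Col4a1 than from Col4a2. Here the RPKM of Col1a1 was below that of Col1a2 in both libraries, at 0.189 times in the wild-type and 0.479 times in the heterozygous library. The RPKM of Col4a1 was below that of Col4a2 in the wild-type library, at 0.375 times, while in the heterozygous library the interval of 0.655 to 1.05 took in equal values. RPKM divides by the whole length the authors used, and which part of a gene was counted is not given. Whether this affects the ratios between chains was not tested.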
